A study of Gadus morhua with 47 samples.

Results

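The 100 transcripts whose level differed most from fish to fish were described in liver slices of Atlantic cod (Gadus morhua). They were chosen from 22100 transcripts by their spread over 8 fish: read counts scaled to a common library total (CPM) were put on the scale log2(CPM + 0.1) and averaged per fish over its slices with the vehicle or with the low dose of benzo[a]pyrene, and the 100 with the largest standard deviation (SD) of the 8 fish means were taken. Only the 10125 transcripts with a mean of 5 to 500 CPM over those slices could be chosen. The spread between fish in those 13 slices is therefore what selected the transcripts, and it is given as a description with no test.

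Precision-cut liver slices are thin sections of fresh liver kept alive in culture. They were exposed to dimethyl sulfoxide (DMSO, the vehicle), to benzo[a]pyrene (BaP, a combustion product that binds the aryl hydrocarbon receptor), to ethynylestradiol (EE2, a synthetic estrogen) or to a mixture of both (Mix). DMSO was given to 8 slices. BaP was given to 7 slices at 10 nM and 7 at 1 µM, EE2 to 7 at 10 nM and 6 at 1 µM, and Mix, in which each compound had the named dose, to 6 at either dose. The fish were 5 males (fish 1, 2, 4, 5 and 7) and 3 females (fish 3, 6 and 8), and each fish gave slices to several treatments. The labels give no strain, age or origin of the fish, and no exposure time.

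Individual animals of an outbred species differ in liver transcripts for many known reasons, among them sequence variants and gene copy number, sex and maturation, feeding state and infection. In egg-laying fish, estrogen acting on the liver of a maturing female induces yolk and egg-shell proteins, and the same genes respond to estrogen in males. Cod store much of their fat in the liver, so the weight of the liver relative to the body is used as a measure of energy reserves.

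Libraries held 36.6 to 67 M (mega) mapped read segments, with a median of 49.1 M, at which 3 counts, taken as the limit of detection for counting error only, correspond to 0.0448 to 0.082 CPM. In 4 libraries, composition stood apart from the other slices of the same fish: the DMSO slice of fish 2, the BaP 10 nM slice of fish 6, the BaP 1 µM slice of fish 7 and the Mix 1 µM slice of fish 8 had TMM scaling factors of 0.665, 0.582, 0.758 and 0.57, and no other library was below 0.846. The first pair was left out by the selection, and the other pair was left out of the results below unless stated. The tests of treatments against DMSO kept all 4 of these slices. The 13 slices that selected the transcripts are called selection slices, and the 30 with BaP 1 µM, EE2 or Mix are called the other slices. Fish 1, 3, 4, 5 and 8 had both selection slices, while fish 2, 6 and 7 had 1 each. The transcript identifiers could not be paired with gene names, so 4 identifiers are printed, and the other transcripts are called by rank, rank 1 having the largest SD. Defining markers of liver and of other cell types could not be read for the same reason.

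The SD of the 8 fish means ranged from 1.76 to 3.89 on the log2 scale, with a median of 2.07, against a median of 0.45 over the 10125 transcripts of the same range. At the border of the selection, ranks 98, 99 and 100 had an SD of 1.763, 1.76 and 1.758, and the next transcripts had 1.755, 1.754 and 1.741. The selected transcripts were lower in level, with a median of 10.9 CPM against 20.5 CPM, and 48 of the 100 had a mean under 10 CPM against 23.3% of the range. Their median coding length was 1156.5 bases (192 to 13854) against 1257 bases. The share of their segments that were unmapped with a mapped mate had a median of 21.3%, against 20.2%.

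To describe the shape of each difference, a fish was called off where all its selection slices were under 0.5 CPM and on where all were at 5 CPM or more. By this description 6 transcripts were on-off, with every fish off or on. In a further 43, at least 1 fish was off and at least 1 on while others lay between. One more (rank 23) had off fish and no fish fully on. No fish was off in the remaining 50. Of these, 5 were stepped, with the largest gap between neighbouring fish at least 50% of the range, and 45 were graded. Of the 50 transcripts with an off fish, 26 were off in 1 fish, 13 in 2 fish and the rest in more. Fish 8 was off for the most transcripts (25), then fish 7 (19), and fish 1 for the fewest (6).

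**Figure D1:**
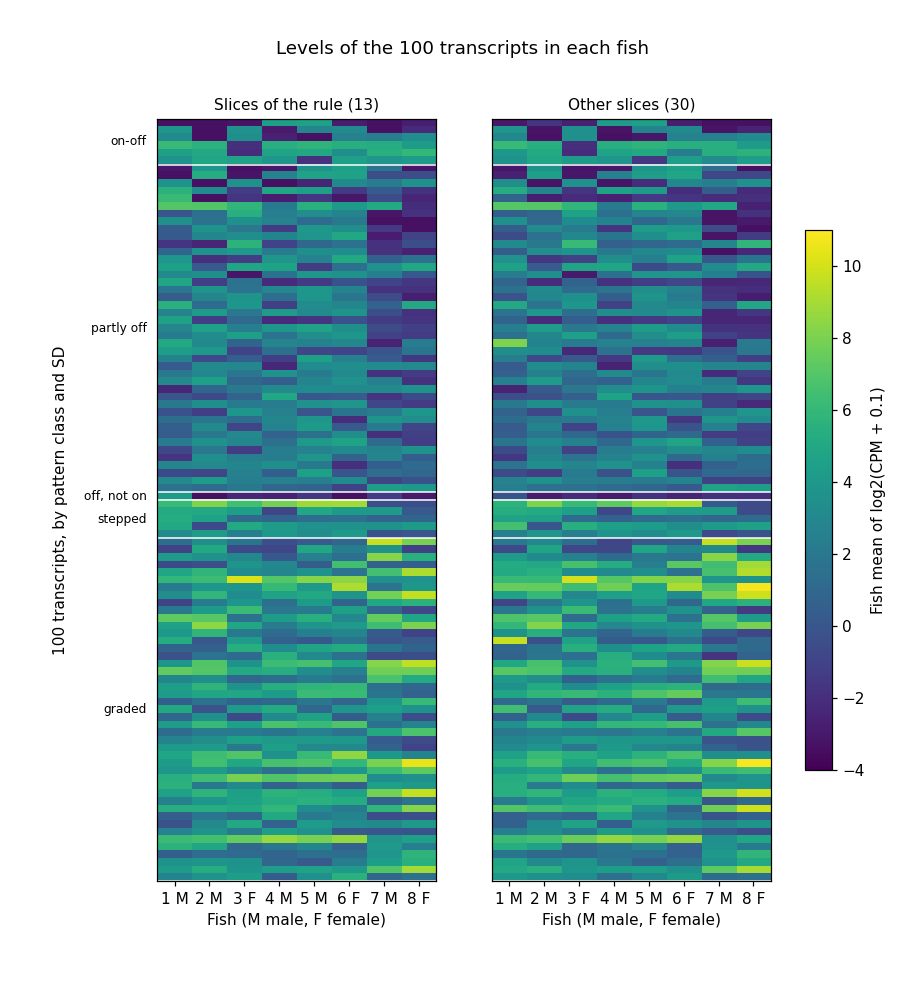
Mean level of the 100 transcripts (rows, grouped by shape and ordered by SD within a shape) in the 8 fish (columns), in the 13 selection slices (left) and in the 30 other slices (right), as fish means of log2(CPM + 0.1). The colour pattern of the left panel recurs in the right one, and the dark block in the columns of fish 7 and 8 holds transcripts that were low in both.

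The on-off transcripts were ranks 5, 6, 8, 17, 20 and 43. The one with the largest SD, ENSGMOT00000013775.1 (rank 5), was on in 2 males. It stood at 21.7 and 21.6 CPM in the selection slices of fish 4 and at 22.6 and 24.7 CPM in those of fish 5, and the highest value in the selection slices of any other fish was 0.063 CPM, in fish 8. In the other slices it stayed at 16.8 to 20.3 CPM in fish 4 and at 19.9 to 24.5 CPM in fish 5. Away from those 2 fish a single slice broke the pattern, the BaP 1 µM slice of fish 2 at 8.47 CPM, and the next highest was 0.183 CPM in fish 3.

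Rank 6 split the fish evenly. It was on in fish 1 (17.3 and 13 CPM), fish 3 (13.7 and 10.7 CPM), fish 5 (8.28 and 6.14 CPM) and fish 6 (8.55 CPM). Fish 2 and 7 were listed at 0, fish 4 reached 0.082 CPM and fish 8 stood at 0.12 and 0.126 CPM. In the other slices the on fish lay between 5.64 and 14.3 CPM and the off fish reached 0.116 CPM at most, so the sets of fish did not overlap in either set of slices.

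Ranks 17, 20 and 43 were each off in 1 fish only. Rank 17 was at 0.312 and 0.0676 CPM in fish 3 and between 18.1 and 74.9 CPM in all other fish, and the other slices gave 0.0679 to 0.311 CPM in fish 3 and 17 to 72.3 CPM elsewhere. Rank 20 was also off in fish 3, at 0.312 and 0.0338 CPM, and between 10.2 and 72.4 CPM in the others. Rank 43 was off in fish 5, at 0.42 and 0.0478 CPM, against 11.9 to 29.6 CPM. The absent fish was thus a female for ranks 17 and 20 and a male for rank 43.

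Rank 8 was off in fish 2, 4 and 5 (at most 0.109 CPM) and at 5.05 to 12.2 CPM in the others. Rank 7 had the same fish on the low side, with at most 0.0988 CPM against 4.72 to 16.6 CPM, and missed the on-off description only through 4.72 CPM in fish 7. The levels of these 2 transcripts had a Pearson r of 0.99 over 43 slices, and they lie 9 rows apart in the deposited tables. Close pairs of this kind recurred: ranks 65 and 73 had an r of 0.998, ranks 31 and 37 of 0.995, and ranks 32 and 39 of 0.988, each pair on neighbouring rows. Near-identical transcripts can share reads in the authors' counting, so the members of such a pair may not be separate measurements. Transcripts on near rows did not always move together. Over the 16 pairs that lay within 20 rows, r ranged from -0.598 (ranks 46 and 68) to 0.998. Over all 4950 pairs of the 100 transcripts the median r was 0.01, with 29 pairs at 0.95 or more and 17 at -0.9 or less. These correlations are descriptions over slices that share fish and library totals.

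Rank 1 was a stepped transcript. Its selection slices lay between 53.7 and 489 CPM in fish 1 to 6, and at 0.638 CPM in fish 7 and 0.649 and 0.693 CPM in fish 8. The other slices gave 21.4 to 711 CPM in fish 1 to 6 and 0.49 to 1.15 CPM in fish 7 and 8. Rank 28 stepped differently, being low in fish 4 (0.383 and 0.522 CPM) and fish 8 (1.28 and 0.898 CPM) and at 16.6 to 37.4 CPM in the rest.

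Among the graded transcripts the largest SD belonged to ENSGMOT00000011772.1 (rank 2), which mirrored rank 1. It reached 865 CPM in fish 7 and 252 and 255 CPM in fish 8, followed by fish 2 at 10.8 CPM, and the remaining fish lay between 0.696 and 5.26 CPM. The order of the top fish was the same in the other slices, with 694 to 963 CPM in fish 7, 201 to 379 CPM in fish 8 and 2.55 to 30.7 CPM in fish 2. Fish 1, 3, 5 and 6 followed at 0.898 to 7.18 CPM, with fish 3 overlapping each of the others, and fish 4 was the lowest at 0.333 to 0.655 CPM.

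**Figure D2:**
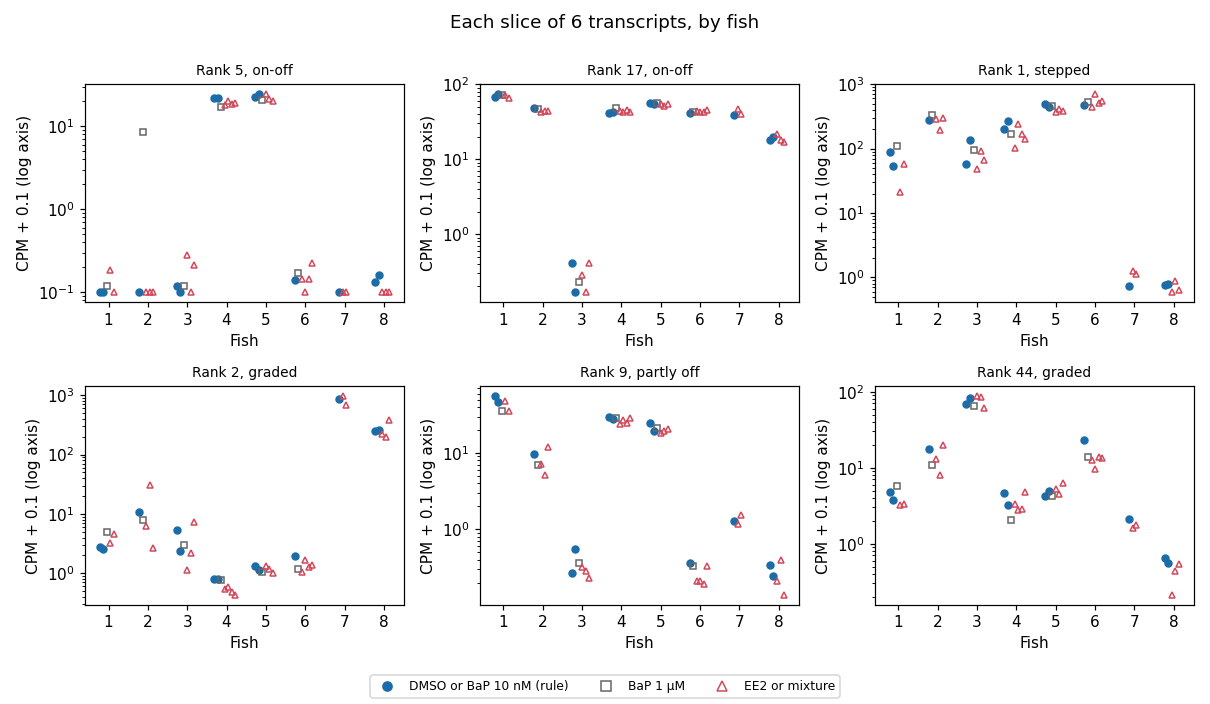
Level of every slice in each of the 8 fish for 6 transcripts, as CPM + 0.1 on log axes, with filled circles for DMSO and BaP 10 nM, squares for BaP 1 µM and triangles for EE2 or Mix. Slices of 1 fish mostly stay near the level of that fish. Exceptions include the BaP 1 µM slice of fish 2 for rank 5 at 8.47 CPM. Fish 2 for rank 2 (2.55 to 30.7 CPM) and fish 1 for rank 1 (21.4 to 111 CPM) also spread.

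Fish 7 and 8, the heaviest animals at 820 and 635 g against 346 to 565 g for the rest, were set apart more often than any other pair. For 18 transcripts the largest gap between neighbouring fish had exactly fish 7 and 8 below it, and for 8 it had exactly these fish above it. Over the 10125 transcripts of the range the same shares were 3.04% below and 19.9% above. The split with both fish low thus made up a larger share of the 100 than of the range. The split with both fish high made up a smaller share. These shares describe the selection slices and were not tested. TMM factors of the selection slices were 1.19 to 1.27 in fish 7 and 8 and 0.894 to 1.17 in the others. Plain CPM of these fish is thus raised relative to TMM-scaled CPM, on which the shares of the range were not worked out. With TMM-scaled CPM, the largest gap set fish 7 and 8 apart, low or high, in 29 of the 100 then chosen. In the other slices 21 transcripts had both fish below the gap and 7 above, against 2.28% and 18.6% of the range. The other slices of fish 7 and 8 all held EE2, while each of fish 1 to 6 also had a BaP 1 µM slice. In the selection slices, fish 7 or fish 8 was the lowest fish in 43 transcripts, against 17.3% of the range, and the highest in 23, against 48.9%. Across the 100 transcripts, deviations of the fish from the mean of all fish were also compared in the selection slices. They had an r of 0.72 for fish 7 with fish 8, while fish 5 with fish 8 gave -0.59 and fish 6 with fish 7 gave -0.57. These values come from the slices that chose the transcripts, so they are descriptions only. Fish 7 is male and fish 8 female, and their livers made up 11.34% and 7.4% of body weight. In bulk tissue, fewer cells of a type and less RNA per cell cannot be told apart.

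A single fish stood apart in 40 transcripts, 18 with that fish low and 22 with it high, against 38.7% of the range. The same fish lay on the same sides of the largest gap in the selection slices and in the other slices for 72 of the 100 transcripts, against 43.8% of the range. Fish 2, 6 and 7, whose mean rests on 1 selection slice, were the highest fish for 27 transcripts and the lowest for 41. Fish 7 was the lowest in 21 of these 41. Shares of the range were not worked out for these fish together, so nothing is read from the counts.

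Slices of the same fish lay close together relative to the distance between fish. In the 5 fish with both selection slices, the DMSO and BaP 10 nM slices had a median log2 difference of 0.33, from 0.27 in fish 8 to 0.4 in fish 1, against a median of 0.18 over the range. In the other slices the median SD of the fish means was 2.01, against 0.47 over the range. The median residual SD of slices, after fitting fish and treatment, was 0.43 against 0.21. With treatment means removed, the spread between fish made up a median of 96.1% of the remaining spread of the other slices, against 86.7% in the range. This share exceeded 90% in 86 transcripts and was under 80% in 10.

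The fish means of the selection slices and of the other slices had a median r of 0.99 over the 8 fish, and r was at least 0.9 in 93 of the 100 transcripts against 59.1% of the range. With BaP 1 µM slices alone, which hold no EE2 and came from 6 fish, the median r was 0.97 (0.87 in the range) and 81 transcripts reached 0.9 against 41.6%. The off and on states were followed over pairs of a transcript and an other slice, so each slice counts once per transcript concerned. Of 354 pairs from fish that had been off, 313 (88.4%) were again under 0.5 CPM. Of 1674 pairs from fish that had been on, 1590 (95%) were again at 5 CPM or more. These shares were not worked out for the range. Of the 41 pairs that left the off state, 28 stayed under 1 CPM, 7 belonged to rank 18 and 5 to rank 98. Away from rank 18, values above 2 CPM occurred in 2 cases, at 8.47 CPM for rank 5 and 2.55 CPM for rank 21, both in the BaP 1 µM slice of fish 2.

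**Figure D3:**
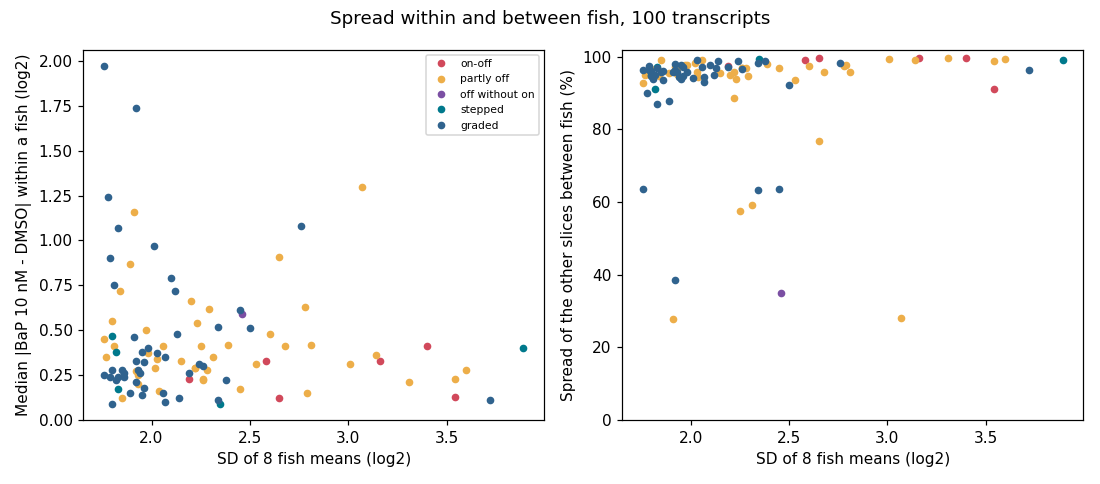
For each of the 100 transcripts, the SD of the 8 fish means on the log2 scale (both x axes) against the median difference of the DMSO and BaP 10 nM slices of a fish (left, log2) and against the percentage of the spread of the 30 other slices that lay between fish (right). Treatment means were removed before that percentage was taken. Colours give the shape of the difference. Points fall mostly above 90% on the right, with 10 transcripts under 80%.

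The fish effect was then tested in the 30 other slices, which renews the slices and not the animals. In an edgeR quasi-likelihood F test over the fish terms with treatment as a covariate, 99 of the 100 transcripts were called at an adjusted p of 0.05, where 92.4% of the 17588 transcripts tested and 98.2% of those in the same CPM range were called as well. The share among the 100 was thus near that of the range. The exception was rank 74 (F = 2.01, adjusted p = 0.0987 in edgeR's test with Benjamini-Hochberg adjustment). With the BaP 1 µM slice of fish 7 and the Mix 1 µM slice of fish 8 kept, all 100 transcripts were called. Rank 74 varied within fish, though its fish means in the selection slices and in the other slices had an r of 0.88. In fish 5 it was at 0.272 CPM with DMSO and 22.9 CPM with BaP 10 nM, and its lowest other slice was at 0.149 CPM. Rank 74 was also the transcript with the smallest share between fish, 27.7%.

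Slices of fish 1 disagreed for a group of 4 transcripts, ranks 10, 23, 31 and 37, which were high in some slices of that fish only. Rank 10 was at 16.4 CPM in the DMSO slice, 277 CPM with BaP 10 nM, 81.6 CPM with BaP 1 µM, 0.42 CPM with EE2 10 nM and 0.02 CPM with EE2 1 µM, and did not exceed 0.832 CPM in any slice of another fish. Rank 23 had 4.54, 68.6, 13.4, 0.17 and 0.1 CPM in the same order, and at most 0.508 CPM elsewhere. Rank 31 ran from 0.19 to 114 CPM and rank 37 from 0.19 to 95.4 CPM in fish 1, with at most 3.09 and 2.19 CPM in the others. The BaP 10 nM slice was the highest for all 4, and the r among them ranged from 0.782 to 0.995 over 43 slices. Other fish did not show these levels with the same treatments. Fish 1 gave 1 slice to each treatment, so treatment and slice cannot be told apart in that fish.

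For other transcripts the DMSO slice of fish 1 was the low one. Rank 49 stood at 1.61 CPM in the DMSO slice and at 899, 500, 1130 and 1100 CPM with BaP 10 nM, BaP 1 µM, EE2 10 nM and EE2 1 µM. The highest value of rank 49 in another fish was 57.1 CPM, in fish 3. Rank 41 stood at 5.01 CPM against 227, 199, 314 and 341 CPM in the same order. Ranks 47, 64 and 87 stood at 10.1, 14.1 and 11.4 CPM with DMSO, and their lowest other slices of fish 1 at 38.4, 58.7 and 56.1 CPM.

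Sex was compared on counts summed per fish over the other slices, 3 females against 5 males, since slices of 1 fish are not replicates of a sex. None of the 100 transcripts was called (0 higher in females and 0 higher in males, edgeR quasi-likelihood test, threshold 0.05), where 0.0% of all 18648 transcripts tested were called in either direction. An unadjusted p under 0.05 occurred in 8 of the 100, 6 higher in males and 2 in females, against 2.49% of all transcripts and 1.95% of the range. The transcripts were chosen for a wide spread over these same fish, so nothing is read from that share. DESeq2 called 5 of the 100 (ranks 9, 46, 65, 73 and 94, all higher in males) and 15 of all transcripts. With fish as a random effect, limma called 1 transcript in all, rank 46 (log2 fold change -3.56, adjusted p = 0.00629). That fit took single slices and a common correlation of slices within fish for all transcripts. For rank 46, 98.8% of the spread of the other slices lay between fish, against a median of 86.7% in the range. Its adjusted p may thus be too small, and nothing is read from it.

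The transcript with the smallest unadjusted p was ENSGMOT00000000401.1 (rank 9), high in males. Its selection slices stood at 55.2 and 46.1 CPM in fish 1, 9.7 CPM in fish 2, 29.1 and 28.1 CPM in fish 4, 24.5 and 19.1 CPM in fish 5 and 1.17 CPM in fish 7, all male. The females were at 0.165 and 0.456 CPM in fish 3, 0.265 CPM in fish 6 and 0.239 and 0.142 CPM in fish 8. In the other slices the mean over fish was 0.169 ± 0.0288 CPM in females (SD, n = 3) and 19.0 ± 15.2 CPM in males (SD, n = 5), and the female and male fish did not overlap. The log2 fold change, female minus male, was -6.79, with an adjusted p of 1 in edgeR. The adjusted p was 0.874 to 1 with 1 of the other fish left out and 0.0411 without fish 7. Fish 7 is the male nearest to the females, so nothing is read from the latter.

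Ranks 46, 65 and 73 were the other transcripts whose male fish were all above the females in the other slices. These 4 of 100 stand beside 0.899% of the range. Nothing is read from that share, since the 100 were chosen for a wide spread over these same fish. Rank 46 averaged 8.17 ± 9.41 CPM in females (n = 3) and 89.2 ± 55.1 CPM in males (n = 5), but the highest female mean (19.0 CPM, fish 8) was close to the lowest male mean (23.2 CPM, fish 4). Rank 65 averaged 0.784 ± 0.329 CPM and 9.22 ± 6.94 CPM, and rank 73, which may share reads with it, 0.612 ± 0.234 CPM and 6.98 ± 5.08 CPM. In the opposite direction, and on the means of log2 values that were used for these counts, 1 transcript (rank 24) had every female above every male, against 0.365% of the range. On mean CPM the sexes overlapped for rank 24, since fish 1, a male, reached 525 CPM with EE2. They also overlapped in slices without EE2, where fish 8, a female, was at 1.09 to 1.57 CPM and fish 4, a male, at 5.99 to 10.9 CPM.

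Among transcripts higher in females, the smallest unadjusted p belonged to ENSGMOT00000002258.1 (rank 44). Its selection slices stood at 68.9 and 82.5 CPM in fish 3 and 23.2 CPM in fish 6, but at 0.546 and 0.457 CPM in fish 8, the lowest of all fish, while males lay between 2.02 CPM in fish 7 and 17.6 CPM in fish 2. Means in the other slices were 29 ± 39.6 CPM in females (n = 3) and 5.29 ± 4.42 CPM in males (n = 5), so that the sexes overlapped. The log2 fold change was 2.65, with an adjusted p of 1 in edgeR. The on-off transcript ENSGMOT00000013775.1 was on in males only, but in 2 of the 5, and had an adjusted p of 1 in edgeR.

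**Figure D4:**
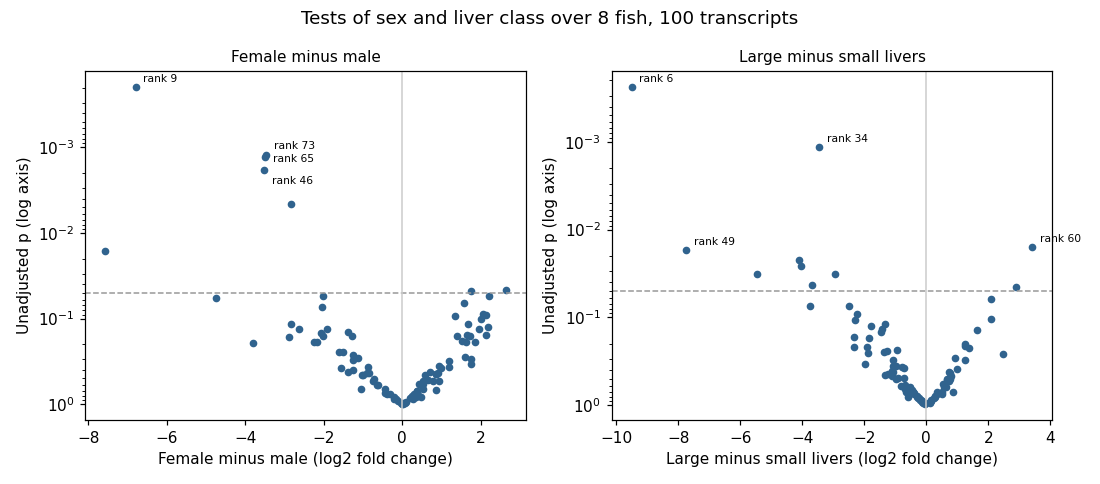
Log2 fold change (x axis) and unadjusted p (log axis, smaller p higher) of each of the 100 transcripts for female minus male fish (left) and for large minus small livers (right), from edgeR on counts summed per fish. The dashed line stands at 0.05. On the left 8 transcripts lie above it and on the right 10, and no transcript was called after adjustment.

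Liver weight over body weight fell into 2 clusters. Fish 2, 4 and 7, all male, had livers of 11.85%, 12.39% and 11.34% of body weight, and the other 5 fish lay between 4.03% in fish 6 and 7.4% in fish 8. No correlation over all fish is given for that reason, and sex is in part confounded with liver size. None of the 100 transcripts was called between large and small livers (0 higher in large and 0 in small livers, edgeR), where 0.0% of all transcripts tested were called in either direction. An unadjusted p under 0.05 occurred in 10 of the 100, 2 higher in large and 8 in small livers, against 2.46% of all transcripts and 2.26% of the range. As with sex, the transcripts were chosen for a wide spread over these same fish, so nothing is read from that share. DESeq2 called 2 of the 100, ranks 6 and 34, and 17 of all transcripts. Ranks 10, 23, 31, 37 and 49, high mainly in fish 1, which has a small liver, were among the 8.

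Rank 6 had the smallest p of the liver comparison (adjusted p of 1 in edgeR). In the other slices its mean over fish was 0.0103 ± 0.00201 CPM in large livers (SD, n = 3), under the limit of detection, and 8.29 ± 5.38 CPM in small livers (SD, n = 5). Fish 8, counted among the small livers, averaged 0.0784 CPM. The 4 fish in which rank 6 was off were thus those with the 4 largest liver ratios, and the 4 in which it was on had ratios of 4.03% to 6.6%. That order was seen after the values were known and differs from the liver classes that were compared. Its share of the range was not worked out, so nothing is read from it. In edgeR the adjusted p was 0.999 with sex as a second term, 0.752 with the liver ratio as a number and 0.761 with both slices kept. It was 0.0143 among the 5 males alone and 0.0442 with BaP 1 µM slices alone. Neither of these settings holds fish 8, and the BaP 1 µM setting also lacks fish 7, so nothing is read from them. With 1 of fish 1 to 7 left out, the adjusted p was 0.859 to 1 in edgeR. It was 0.000318 without fish 8, the small-liver fish in which rank 6 was off, so nothing is read from that value.

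Rank 34 had means of 1.82 ± 1.64 CPM in large livers (n = 3) and 18.5 ± 12.1 CPM in small livers (n = 5), with a log2 fold change of -3.45 (adjusted p of 1 in edgeR). Fish 6 had the lowest mean of the small livers, 7.2 CPM, and fish 2 the highest of the large, 3.61 CPM. Ranks 6 and 34 were the 2 transcripts with the mean of every small liver above that of every large one, against 0.435% of the range, and 0 transcripts had the opposite order, against 0.82%. Rank 60 was the transcript with the smallest p among those higher in large livers (log2 fold change 3.42, adjusted p of 1 in edgeR), but it was high in fish 4 only, at 34.3 and 26.6 CPM against at most 1.86 CPM in the selection slices of all other fish.

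Few of these transcripts were called against DMSO, though with EE2 or Mix their called share was above that of the range. The tests against DMSO had fish as a term in edgeR and kept the 4 slices that stand apart. BaP 10 nM called 0 of the 100, against 0.0% of the 17824 tested and of the range. BaP 1 µM called 0, against 0.0673% of those tested and 0.0494% of the range. EE2 10 nM called 2 (0.286% and 0.148%), EE2 1 µM 2 (0.348% and 0.198%), Mix 10 nM 1 (0.236% and 0.0889%) and Mix 1 µM 4 (0.41% and 0.277%). Leaving out the 4 slices that stand apart, these treatments called 6, 3, 2 and 3 of the 100 in the same order. The DMSO slices, which are shared by all these comparisons, also took part in the selection, and so did the BaP 10 nM slices. Nothing is therefore read from the comparison of BaP 10 nM with DMSO. For the other treatments nothing is read from the called shares set against the range. At an unadjusted p under 0.05 the counts were 2, 4, 12, 13, 12 and 10 of the 100 in the same order, and 80, 817, 348, 432, 522 and 523 of the 10125 in the range. DESeq2 likewise called 0 with BaP at either dose.

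Rank 24 rose with each treatment that held EE2. Its log2 fold change was 4.67 ± 1.04 (SE) with EE2 10 nM (adjusted p = 0.0257, edgeR), 5.23 ± 1.08 with EE2 1 µM (0.00815), 4.81 ± 1.07 with Mix 10 nM (0.0292) and 5.53 ± 1.11 with Mix 1 µM (0.00554). Each SE of a treatment was worked back as the absolute log2 fold change over the square root of the test's F value. Without the 4 slices that stand apart, the value with Mix 1 µM was 4 ± 0.97 (adjusted p = 0.0426, edgeR). Without EE2 the fish already differed, from 62.6 to 86 CPM in fish 6 and 12.3 to 14.6 CPM in fish 3, both female, to 0.42 to 0.693 CPM in fish 1. With EE2, fish 8 reached 343 to 842 CPM from 1.09 to 1.57 CPM, and fish 1 reached 183 to 525 CPM. The difference was smallest in fish 6, at 134 to 315 CPM with EE2, and fish 5 was lowest at 9 to 16.1 CPM. The order of the fish with EE2 thus differed from that without it, and the r between selection slices and other slices was 0.32, the lowest of the 100.

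Rank 30 lies 5 rows from rank 24 in the tables and followed it with an r of 0.927 over 43 slices. It rose with Mix 1 µM (log2 fold change 4.68 ± 1.03, adjusted p = 0.019, edgeR), and its other values were 3.57 ± 0.97 with EE2 10 nM (0.178), 4.15 ± 1.02 with EE2 1 µM (0.0592) and 3.78 ± 1 with Mix 10 nM (0.166). Without the 4 slices that stand apart, the call with Mix 1 µM was lost (3.39 ± 0.97, adjusted p = 0.131, edgeR), while EE2 10 nM (3.56 ± 0.97, 0.0418) and EE2 1 µM (4.39 ± 1.03, 0.0301) were called. Without EE2 it was highest in fish 6, at 381 to 565 CPM, and at most 83.9 CPM in any other fish. With EE2 it reached 1160 to 3700 CPM in fish 8 and 701 to 1750 CPM in fish 1, against 550 to 832 CPM in fish 6.

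Rank 18 had a like pattern centred on another female. Without EE2 it stood at 46.8 to 55.3 CPM in fish 3 and at no more than 3.1 CPM in any other fish. With EE2, fish 3 reached 58.6 to 103 CPM, fish 8 38.4 to 115 CPM, fish 1 33.6 to 53 CPM and fish 2 1.63 to 32.4 CPM. Fish 7 reached 6.13 to 8.09 CPM. Fish 4 stood at 1.15 to 4.06 CPM with EE2, against 0.0423 to 0.547 CPM without it. Fish 5 stood at 2.16 to 2.97 CPM with EE2 and 0.657 to 2.96 CPM without it. Fish 6 stood at 1.75 to 3.43 CPM with EE2 and 1.16 to 3.1 CPM without it. In the edgeR fit of all 47 slices it was not called against DMSO with any treatment. Its log2 fold change there was 3.52 with EE2 10 nM (adjusted p = 0.107, edgeR) and 3.52 with EE2 1 µM (0.117). Whether rank 18 was called in the other settings was not listed.

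Rank 62 combined a fixed difference between fish with a smaller rise. Its log2 fold change was 1.06 ± 0.23 with EE2 10 nM (adjusted p = 0.0189, edgeR), 1.44 ± 0.24 with EE2 1 µM (0.000399) and 1.36 ± 0.24 with Mix 1 µM (0.00104), and 0.9 ± 0.24 with Mix 10 nM (0.166), which was called without the 4 slices that stand apart (1 ± 0.22, 0.0328). Fish 7 and 8 stayed low throughout, at 1.51 to 3.39 CPM without EE2 and 2.43 to 6.1 CPM with it, while the other fish lay between 16.7 and 89.9 CPM without and 23.4 and 238 CPM with EE2. Rank 46, one of the transcripts higher in males, fell by 1 ± 0.23 on the log2 scale with Mix 1 µM (adjusted p = 0.0274, edgeR). Its values with EE2 10 nM, EE2 1 µM and Mix 10 nM were -0.39, -0.63 and -0.51, and with BaP 10 nM and BaP 1 µM, which hold no EE2, they were -0.69 and -0.58, none of them called. Without fish as a term, no transcript of the 100 was called with any treatment.

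**Figure D5:**
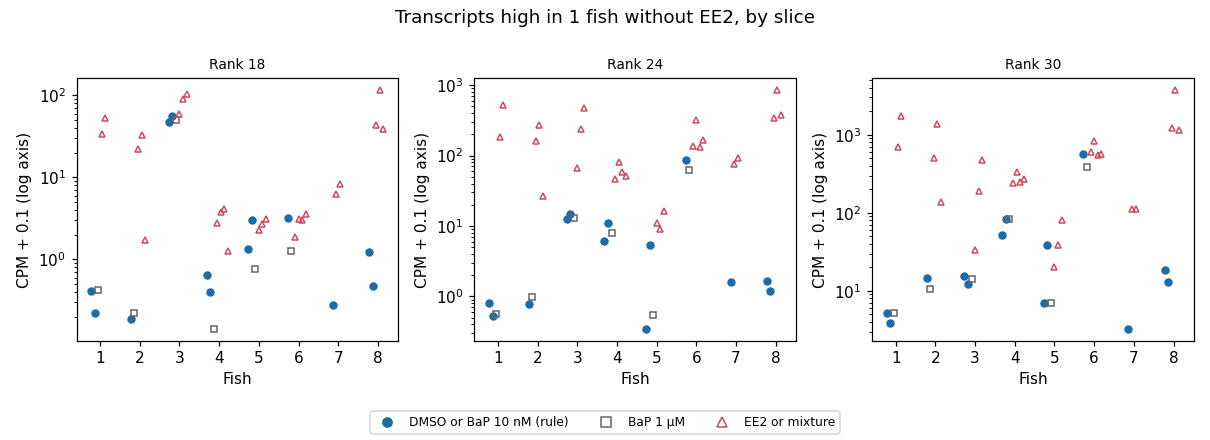
Level of every slice in each of the 8 fish for ranks 18, 24 and 30, as CPM + 0.1 on log axes, with filled circles for DMSO and BaP 10 nM, squares for BaP 1 µM and triangles for EE2 or Mix. Fish 3 (rank 18) and fish 6 (ranks 24 and 30) were high without EE2, and fish 1 and 8 reached like or higher levels in most slices with EE2.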

How the data were processed

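RNA from 47 liver slices was sequenced as paired reads from a stranded mRNA library kit, per the labels' protocols. Per the submitters' processing notes, the tools were HISAT2 2.1.0 with SAMtools 1.4.1, and FastQC 0.11.5. No reference build or counting option is named there or in the labels. Each deposited table holds, for 22100 transcripts, whole counts of mapped segments and of unmapped segments with a mapped mate, not normalized. A last row for segments on no transcript (41.8% to 57.8% of segments) was left out of totals and tests. Lengths were multiples of 3 for 99.99% of transcripts, hence coding lengths. The name table, with 33114 genes, matched 0 identifiers. Therefore lists of marker genes were not applied, no sequences are printed, and identifiers were limited to 4: the on-off and the graded transcript with the largest SD, and those with the smallest p of the sex comparison in each direction, or the next where already named. Transcripts called by rank were picked after their values were seen.

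CPM used plain library totals. The selection, lists and tests were chosen with earlier results of these data known. Counts were tested with the quasi-likelihood test of edgeR 4.0.16 in R 4.3.3 (TMM factors, expression filter with a minimum count of 10 and total of 15), adjusted by the Benjamini-Hochberg method over all transcripts tested, threshold 0.05. Fish effects used the 30 other slices with treatment as a term. Sex and liver class used counts summed per fish, with treatments not balanced over the fish. Treatments used all 47 slices with fish as a term, since every replicate number has 1 sex and 1 pair of weights in the labels. Alternatives used DESeq2 1.42.0 and limma 3.58.1, other scaling, no filter, and leaving out slices or fish. The tests of fish, sex, liver class and EE2 1 µM were checked on simulated data. Reads carried no molecular identifiers and both mates count, so limits cover counting error only and are too narrow. No 2 libraries had identical counts (0 pairs).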

Additional observations from a re-analysis of the deposited data

Results flagged for a closer look

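Each of 28 sets held all slices of 1 treatment for 1 of the 4 printed identifiers. In 3 sets a slice lay far from the others by Dixon's test at the 95% level. That level means about 1 in 20 sets for unselected, normally distributed values. The identifiers came from transcripts chosen for their spread between fish, so this rate does not hold here and nothing is read from the number. ENSGMOT00000013775.1 stood at 18.1 CPM in the EE2 10 nM slice of fish 4, the only slice of a fish with this transcript on in that treatment. ENSGMOT00000011772.1 stood at 827 CPM in the BaP 1 µM slice of fish 7, one of the 4 slices that stand apart, and at 201 CPM in the EE2 1 µM slice of fish 8, the only slices of fish 7 or 8 in those treatments. Each value lay near those of the same fish in other treatments. Their part in the comparisons of treatments was not tested.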

How the results depend on the processing

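The selection itself depended on the setting. Of the 100 transcripts, 70 were chosen again with a pseudocount of 1, 88 with both left-out slices kept, 85 with TMM-scaled CPM, 98 with no upper limit and 75 to 88 with 1 fish left out. The fish effect called 96 to 100 of the 100 in all alternatives run. For sex, 5 were called by DESeq2, 1 by limma with fish as a random effect (the replicate block, single slices), and 0 to 1 with a fish left out (rank 9 without fish 7). For liver class, 2 were called by DESeq2, 1 among males only, 1 with BaP 1 µM slices only (an alternative chosen after seeing the data) and 0 to 1 with a fish left out (rank 6 without fish 8). The settings with males only and with BaP 1 µM slices only also lack fish 8. ENSGMOT00000011772.1 had a log2 fold change of -1.04, female minus male, which reversed to 4.87 with liver class as a second term, 0.59 with limma and 4.13 without fish 7, and ranged from -6.02 (without fish 8) to 4.13 with a fish left out. Fish 7 and 8 were the fish with high levels of it; the cause was not otherwise tested. With EE2 10 nM, EE2 1 µM, Mix 10 nM and Mix 1 µM, 0 transcripts were called with no replicate block in each case. The numbers were 6, 3, 2 and 3 without the 4 slices that stand apart, and 4, 4, 3 and 4 with DESeq2. Some transcripts called only in these settings are not named. No other count moved by over 1.5 times. The number of fish, 3 against 5 in either class comparison, limits their precision. DESeq2 gave no adjusted p to some of the 100 and tested 81 and 83 for sex and liver.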
